A study of Homo sapiens with 9 samples.

Results

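The transcripts of 10 genes that the ERK pathway induces were followed in HEK293 cells: the transcription factors EGR1, ETV4 and ETV5, the phosphatases DUSP4, DUSP5 and DUSP6, the inhibitors SPRY2, SPRY4 and SPRED1, and PHLDA1. They were taken by gene symbol, as a list of ERK target and feedback genes. The list was chosen with earlier results of these data known. Each of the 10 had 1 probe set annotated to it alone, so 10 genes of the 14232 with such a probe set are described. HEK293 is a human embryonic kidney cell line. All cells were grown with serum and carried Stealth small interfering RNAs (siRNAs), double-stranded RNAs that direct the cleavage of a matching messenger RNA: a control (siCTR), one against DBC1 (siDBC1) or one against ZNF326, also named ZIRD (siZNF326). RNA was taken 48 h later from independent experiments, 3 per siRNA, and hybridised to 9 Affymetrix arrays. DBC1 is the protein of CCAR2, and it and ZNF326 make up the DBIRD complex, which acts where RNA polymerase II elongates through exons. The study set each siRNA against the control to ask how these subunits bear on gene expression and splicing. The labels name no growth factor or inhibitor treatment and no selection of transfected cells, and no ERK protein or phosphorylation was measured.

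ERK is the last kinase of the RAS, RAF and MEK cascade, which growth factor receptors switch on. Active ERK enters the nucleus and phosphorylates transcription factors such as ELK1, which act with SRF at serum response elements. The genes that active ERK induces, by this or other routes, include EGR1, the ETS factors ETV4 and ETV5, and the brakes of the cascade. Among the brakes, dual-specificity phosphatases (DUSPs) remove phosphates from ERK, and Sprouty and SPRED proteins hold back RAS and RAF. Transcripts of these genes are therefore commonly read as the output of the pathway.

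The promoters of EGR1 and DUSP6 are shown because these were the genes that passed the test in the results that follow. RefSeq windows on GRCh38.p14 were found for 6 of the 10 genes (EGR1, DUSP6, SPRED1, SPRY2, SPRY4 and PHLDA1), and the 250 bases before the start of transcription were searched on both strands. Each sequence runs 5′ to 3′ on the strand of the gene. The EGR1 window lies at chr5:138465229-138465478 on the plus strand. Its capitals mark CArG boxes, the binding sequence of SRF within a serum response element, and the core of the cyclic AMP response element, TGACG, here on the opposite strand. The DUSP6 window lies at chr12:89352502-89352751 on the minus strand and held none of the searched motifs.
EGR1: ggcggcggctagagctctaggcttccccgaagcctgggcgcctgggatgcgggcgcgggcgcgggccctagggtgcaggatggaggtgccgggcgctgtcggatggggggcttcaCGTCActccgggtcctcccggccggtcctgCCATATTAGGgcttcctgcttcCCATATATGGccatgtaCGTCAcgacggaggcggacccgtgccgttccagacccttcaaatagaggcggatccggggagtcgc
DUSP6: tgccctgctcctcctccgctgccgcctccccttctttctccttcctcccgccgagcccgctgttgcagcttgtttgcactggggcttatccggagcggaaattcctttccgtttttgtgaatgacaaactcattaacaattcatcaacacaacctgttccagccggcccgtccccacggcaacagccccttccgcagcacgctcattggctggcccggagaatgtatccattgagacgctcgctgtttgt

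The 2 CArG boxes of EGR1 begin 105 and 83 bases before the start, and its 2 TGACG cores begin 135 and 66 bases before it. A CArG box stood in 1.16% of the 35116 RefSeq windows of this length and TGACG in 21.2%. Among the other genes, SPRY4 and SPRY2 (in 1 of its 3 windows) also held a TGACG core, and SPRY4, SPRY2, SPRED1 and PHLDA1 held a GC box, GGGCGG, which was present in 42.6% of windows. The ETS site CCGGAAG (8.52% of windows), the AP-1 site TGANTCA (6.57%) and the TATA box TATAAA (10.7%) were not found in any of the 8 windows of these genes. Only this full form of the ETS site was searched, so its absence does not cover shorter or variant forms. Its part GGAAG stands on the opposite strand in both printed windows, in EGR1 also between the 2 CArG boxes. Such matches describe the letters only, and binding was not measured.

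All expression values below are log2 values made by the authors with RMA, which corrects background, normalises between arrays and summarises the probes of a gene. A difference of 1 is a doubling, and levels of different genes are not compared. Array medians ran from 5.58 in siDBC1 replicate 2 to 5.90 in siZNF326 replicate 1, and correlations between arrays lay between 0.953 and 0.988. Markers of HEK293 cells (NEFM, NEFL, INA, VIM, KRT8, KRT18 and CDH2) were all measured, 5 of 7 above the upper quartile of every array. Their summed level was 11.5 to 11.7 in siCTR, 11.7 to 11.8 in siDBC1 and 11.7 to 12.0 in siZNF326. Single markers moved more than the sum: NEFM, NEFL and INA lay 1.72, 0.44 and 0.95 above siCTR in siZNF326, without overlap of arrays. Their adjusted p were 0.158, 0.323 and 0.220 in limma, while VIM, KRT8, KRT18 and CDH2 overlapped siCTR. The part of these markers in the results was not tested. Markers of other cell types were mixed. Below the lower quartile on all 9 arrays lay 3 of 5 measured blood markers (PTPRC, CD3E and LYZ), 1 of 6 fibroblast markers (DCN) and 1 of 3 endothelial markers (PECAM1), while COL1A1 and CD68 lay above the median on all 9. The summed fibroblast level was 7.65 to 7.73 in siCTR, 7.72 to 7.78 in siDBC1 and 7.72 to 7.77 in siZNF326. CCAR2 fell from 7.72 ± 0.096 (SD, n = 3) in siCTR to 6.56 ± 0.078 in siDBC1, with adjusted p = 0.0116 in limma, and lay lower on 3 of 3 arrays. That call was lost with only siDBC1 and siCTR in the fit (adjusted p = 0.253), and without siCTR replicate 2, siDBC1 replicate 1 or 2, or siZNF326 replicate 3 (adjusted p from 0.0544 to 0.122), at differences between −1.19 and −1.13. ZNF326 went against its label: it read 5.55 ± 0.27 (SD, n = 3) in siCTR and 5.83 ± 0.28 in the arrays labelled siZNF326, a difference of 0.28 (adjusted p = 0.851). It was highest in siDBC1, at 6.24, 5.64 and 7.32, or 0.85 above siCTR (adjusted p = 0.844). CCAR2 lay 0.26 above siCTR in the arrays labelled siZNF326, on 3 of 3 arrays (adjusted p = 0.377). For that reason siZNF326 stands below for the label of these arrays and not for a depletion seen in them.

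DUSP6 and EGR1 passed the test in the arrays labelled siZNF326, and both were higher than in siCTR. DUSP6, a phosphatase selective for ERK, was 2.03-fold higher and EGR1, a zinc finger factor induced within minutes of ERK activation, 1.51-fold higher. A call is an adjusted p below 0.05 in limma, after Benjamini-Hochberg adjustment over all 22011 probe sets. Across all of these, 0.15% were called in siZNF326 against siCTR and 0.0909% were called higher. In siDBC1 against siCTR 0 of the 10 genes were called, with 0.0363% of all probe sets called, and 5 had an unadjusted p under 0.05 (DUSP6, ETV5, EGR1, DUSP5 and ETV4, each above siCTR), beside 6.18% of all probe sets. In siZNF326 against siCTR 5 had one as well (DUSP6, EGR1, ETV5, DUSP5 and SPRED1), beside 8.65%. Between the arrays labelled siZNF326 and siDBC1 0 of 10 were called, with 0.00909% of all probe sets called, and 2 had an unadjusted p under 0.05 (EGR1 and DUSP6), beside 7.31%.

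By their means 9 of the 10 genes lay above siCTR in siDBC1, SPRY2 being the exception, and 10 of 10 in siZNF326. All probe sets lay above siCTR in 53.8% and 56.6% of cases. With arrays centred on their medians, or after quantile normalization, DUSP4 and PHLDA1 fell below siCTR in siZNF326 by at most 0.077, leaving 8 of 10 above. The median over all probe sets also fell below siCTR under both of these settings. The median difference of the 10 genes was 0.22 in siDBC1 and 0.24 in siZNF326, beside 0.014 and 0.032 over all probe sets. The siZNF326 median was 0.15 with arrays centred, 0.11 after quantile normalization and 0.16 without siZNF326 replicate 1. Over all probe sets it was −0.059, −0.039 and 0.012 under the same settings. Both comparisons use the same 3 siCTR arrays, so their directions are not independent of each other. Because the 10 genes were chosen with earlier results known, their counts beside the shares of all probe sets are description and no test. All 3 siDBC1 arrays lay above all 3 siCTR arrays for 4 genes (DUSP5, DUSP6, ETV5 and EGR1), where 5.18% of all probe sets did so. In siZNF326 this held for 5 genes (the same 4 and SPRED1), where 12.9% of all probe sets did so.

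**Figure D1:**
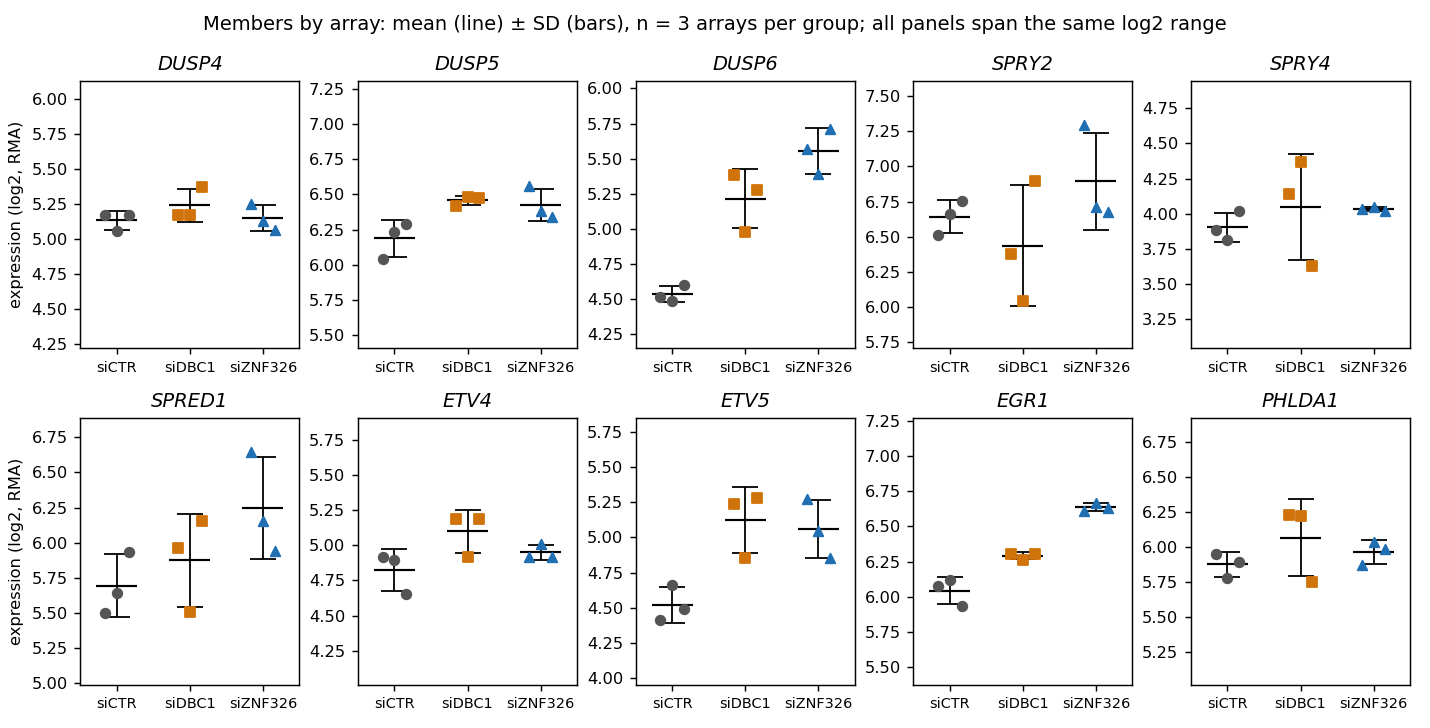
Log2 expression (vertical axes, each spanning the same log2 range) of the 10 genes on every array, by siRNA group (horizontal axes); points are arrays, lines are means and bars are the SD of 3 arrays. For EGR1 the 3 groups do not overlap, with siCTR at 5.93 to 6.12, siDBC1 at 6.26 to 6.31 and siZNF326 at 6.61 to 6.66, whereas the siDBC1 arrays of SPRY2 spread from 6.04 to 6.89.

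Among the transcription factors, EGR1 had the smallest SDs. Its siDBC1 replicates 1 and 3 hold an identical value, as 41.4% of all probe sets do on 2 or more arrays, which bears on small SDs here. It read 6.08, 6.12 and 5.93 on the siCTR arrays, 6.31, 6.26 and 6.31 in siDBC1, and 6.61, 6.66 and 6.63 in the arrays labelled siZNF326. Every siDBC1 array lay above every siCTR array, and every siZNF326 array above every siDBC1 array. Against siCTR the difference was 0.59 in siZNF326 (SE 0.073, 95% interval 0.42 to 0.76, adjusted p = 0.0376 in limma), higher on 3 of 3 arrays. In siDBC1 it was 0.25 (95% interval 0.079 to 0.42, adjusted p = 0.579), which did not pass. The difference between siZNF326 and siDBC1 was 0.34 (95% interval 0.17 to 0.51, adjusted p = 0.393) and did not pass either, although the arrays did not overlap.

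ETV5, an ETS factor induced by fibroblast growth factor signalling, stood higher in both siRNA groups by similar amounts. Its siCTR arrays read 4.41, 4.66 and 4.49, its siDBC1 arrays 5.24, 4.86 and 5.28, and its siZNF326 arrays 5.27, 5.05 and 4.86. Neither siRNA group overlapped siCTR, while the siDBC1 and siZNF326 arrays overlapped each other. The differences from siCTR were 0.60 in siDBC1 (SE 0.15, adjusted p = 0.456 in limma) and 0.54 in siZNF326 (adjusted p = 0.343), or 1.52-fold and 1.45-fold, and did not pass over all probe sets. Between the siRNA groups ETV5 differed by −0.066, with an interval from −0.42 to 0.29.

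ETV4, the close relative of ETV5, differed less. On the siCTR arrays it read 4.92, 4.90 and 4.65, in siDBC1 5.19, 4.92 and 5.19, and in siZNF326 4.92, 5.01 and 4.92. The value 4.92 recurred in all 3 groups, so that siCTR overlapped both. The differences from siCTR were 0.27 in siDBC1 (adjusted p = 0.783 in limma) and 0.13 in siZNF326 (adjusted p = 0.763).

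DUSP6 showed the largest differences of the 10 genes against siCTR, in either siRNA group. It is a cytoplasmic phosphatase that binds and inactivates ERK, and its transcript follows ERK activity closely in many cell types. Its siCTR arrays read 4.52, 4.49 and 4.60, its siDBC1 arrays 5.39, 4.98 and 5.28, and the arrays labelled siZNF326 5.57, 5.39 and 5.71. The 3 groups were ordered without overlap, although siDBC1 replicate 1 (5.386) and siZNF326 replicate 2 (5.389) were nearly equal. The rise in siZNF326 was 1.02 (SE 0.13, 95% interval 0.72 to 1.32, adjusted p = 0.0376 in limma) on 3 of 3 arrays. In siDBC1 the difference was 0.68, or 1.60-fold (95% interval 0.38 to 0.97, adjusted p = 0.282), also above siCTR on 3 of 3 arrays, and it was not called. Between siZNF326 and siDBC1 the difference was 0.34 (95% interval 0.046 to 0.64, adjusted p = 0.658). DUSP6 lay below the median of all probe sets on 9 of 9 arrays, and EGR1 on 0 of 9.

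DUSP5, a nuclear phosphatase of ERK, read 6.04, 6.23 and 6.29 in siCTR, 6.42, 6.48 and 6.47 in siDBC1 and 6.56, 6.38 and 6.34 in siZNF326. Both siRNA groups lay above siCTR without overlap, by margins smaller than those of DUSP6. The differences were 0.27 (adjusted p = 0.722 in limma) and 0.24 (adjusted p = 0.539), and between the siRNA groups −0.031. DUSP4, a nuclear phosphatase that also acts on JNK and p38, showed the smallest difference in siZNF326, 0.014 (95% interval −0.19 to 0.22). Its values ran only from 5.06 to 5.37 over the 9 arrays, and 5.17 occurred on 2 siCTR and 2 siDBC1 arrays. In siDBC1 it differed from siCTR by 0.11 (adjusted p = 0.962). The 3 ERK phosphatases therefore covered fold differences from 1.01 to 2.03 in siZNF326, and whether they differed from each other was not tested.

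**Figure D2:**
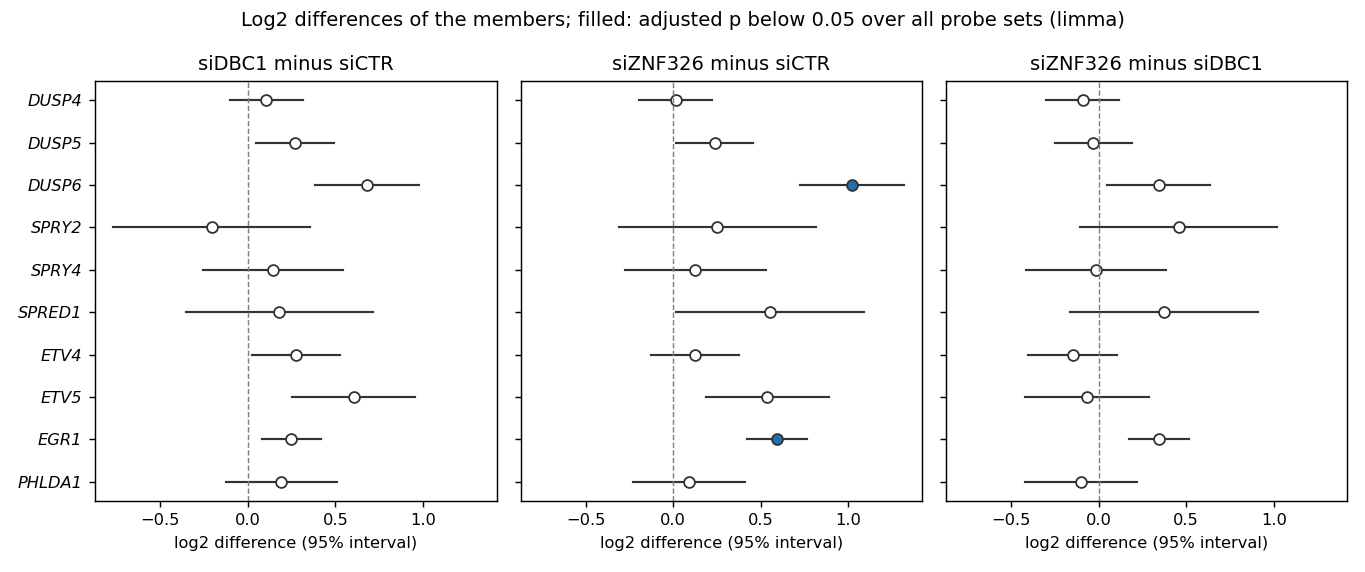
Log2 differences (horizontal axes) of the 10 genes in the 3 comparisons, with 95% intervals of the limma fit; filled circles have an adjusted p below 0.05 over all probe sets. DUSP6 at 1.02 and EGR1 at 0.59 in siZNF326 minus siCTR are the filled points, and the widest intervals belong to SPRY2 and SPRED1.

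SPRY2, SPRY4 and SPRED1 had the largest SDs of the 10 genes within siDBC1, 0.43, 0.38 and 0.33. SPRY2, which blocks the path from receptor to RAS, read 6.51, 6.66 and 6.75 in siCTR, 6.37, 6.04 and 6.89 in siDBC1 and 7.29, 6.71 and 6.68 in siZNF326. Replicate 1 of siZNF326 and replicate 3 of siDBC1 stood highest and replicate 2 of siDBC1 lowest. SPRY2 differed from siCTR by −0.21 in siDBC1 (95% interval −0.77 to 0.36) and by 0.25 in siZNF326 (−0.31 to 0.81), with adjusted p = 0.983 and 0.786 in limma. SPRED1, which brings neurofibromin to RAS, read 5.50, 5.64 and 5.94 in siCTR, 5.96, 5.51 and 6.15 in siDBC1 and 6.64, 6.16 and 5.94 in siZNF326. The siZNF326 arrays all lay above siCTR, although replicate 3 of both groups read 5.94, and the siDBC1 arrays overlapped siCTR. Its differences were 0.18 (adjusted p = 0.983) and 0.55 (95% interval 0.017 to 1.09, adjusted p = 0.565).

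SPRY4, an inhibitor of the same step as SPRY2, read 3.88, 3.81 and 4.02 in siCTR, 4.14, 4.37 and 3.63 in siDBC1 and 4.03, 4.04 and 4.02 in siZNF326. It lay below the lower quartile of all probe sets on 7 of 9 arrays, and the siDBC1 arrays fell on both sides of siCTR. It differed from siCTR by 0.14 (adjusted p = 0.983 in limma) and 0.13 (adjusted p = 0.847). Without siDBC1 replicate 2 its difference in siDBC1 was −0.018. PHLDA1, a pleckstrin homology-like protein induced by growth factors and ERK, read 5.95, 5.78 and 5.89 in siCTR, 6.23, 6.22 and 5.75 in siDBC1 and 5.87, 6.04 and 5.98 in siZNF326. As with SPRY4, replicate 3 of siDBC1 was the lowest array and the other siDBC1 arrays the highest. The differences of PHLDA1 were 0.19 (adjusted p = 0.951) and 0.089 (adjusted p = 0.866).

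The scatter of several of the 10 genes moved with the median of the array. Over the 9 arrays the correlation with the array median was 0.92 for SPRY2 (Spearman 0.95) and 0.90 for SPRED1 (Spearman 0.83). It stayed at 0.76 and 0.82 without siDBC1 replicate 2 and siZNF326 replicate 1, the arrays farthest from the middle. PHLDA1 ran the other way, at −0.61 (Spearman −0.50), as did SPRY4, at −0.55 (Spearman −0.23), which fell to −0.36 and −0.44 without these arrays and so rested on them in part. For ETV5 and DUSP4 it was 0.56 and 0.55, and 0.80 and 0.78 once group means were removed. DUSP5 had 0.42, and 0.79 without these arrays. EGR1, DUSP6 and ETV4 had 0.38, 0.48 and 0.21 (Spearman 0.37, 0.50 and 0.11). These are descriptions over arrays that share their group and processing, and the part of the array median in any difference was not tested.

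**Figure D3:**
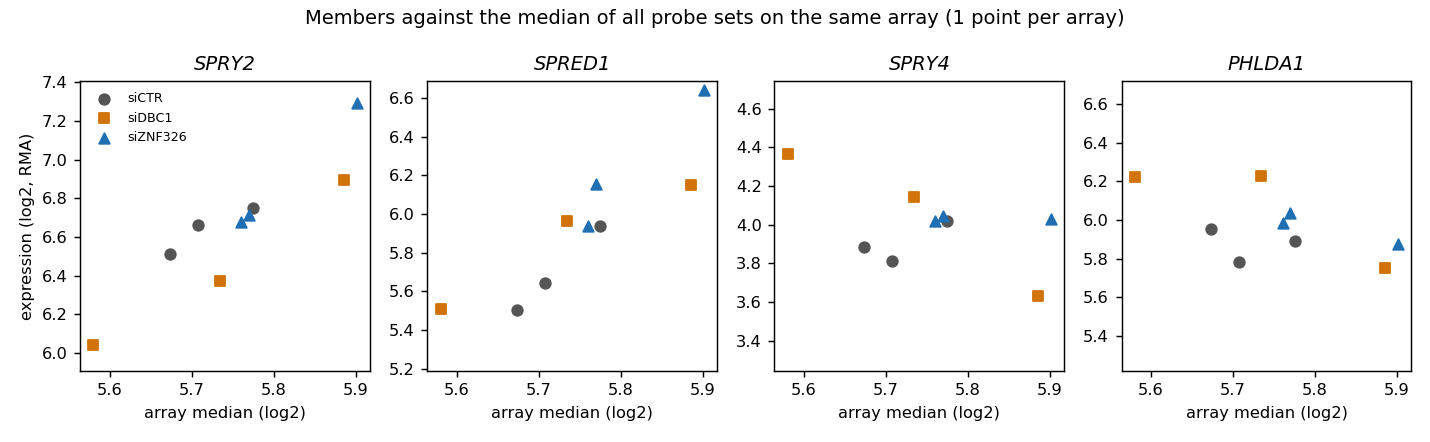
Log2 expression of SPRY2, SPRED1, SPRY4 and PHLDA1 (vertical axes, of equal span) against the median of all probe sets on the same array (horizontal axes), 1 point per array and a colour and shape per siRNA group. SPRY2 and SPRED1 climb with the array median across groups, with correlations of 0.92 and 0.90, while SPRY4 and PHLDA1 are lowest on siDBC1 replicate 3, at an array median of 5.89.

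Between the 2 siRNA groups the 10 genes were not shifted to one side. Their median difference, siZNF326 minus siDBC1, was −0.023 beside 0.024 over all probe sets, and 4 of 10 were higher in siZNF326 (DUSP6, SPRY2, SPRED1 and EGR1), where 55.4% of all probe sets were. The groups did not overlap for DUSP6 and EGR1, both higher in the arrays labelled siZNF326, where 5.21% of all probe sets were separated in that direction. The largest difference in size was that of SPRY2, 0.46, with an interval from −0.10 to 1.02. ETV4 had the lowest, −0.15 (95% interval −0.40 to 0.10). No margin for likeness was set, so the intervals of SPRY2 and ETV4 do not show that the siRNA groups were alike. The intervals of DUSP6 (0.046 to 0.64) and EGR1 (0.17 to 0.51) were positive throughout, although neither gene was called here (adjusted p = 0.658 and 0.393 in limma).

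The calls of DUSP6 and EGR1 lay close to the threshold and were lost on leaving out nearly any 1 array, although the differences themselves moved little. The difference of DUSP6 ranged from 0.94 to 1.10 and that of EGR1 from 0.54 to 0.63 when each of the 9 arrays was left out in turn. Both calls held without siDBC1 replicate 2 (adjusted p = 0.0216 and 0.0371 in limma) and were lost without any other single array. The largest adjusted p was 0.207 for DUSP6, without siCTR replicate 2, and 0.184 for EGR1, without siZNF326 replicate 2. The scaling separated them: with arrays centred, or after quantile normalization, DUSP6 kept its call at 0.93 and 0.97 (adjusted p = 0.0187 and 0.0126), and EGR1 lost it at 0.50 and 0.47 (adjusted p = 0.150 and 0.211). With only siZNF326 and siCTR in the fit both missed the threshold (adjusted p = 0.0700 and 0.0894). Both also missed it with the replicate number as a block (adjusted p = 0.0980 and 0.167 in limma).

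**Figure D4:**
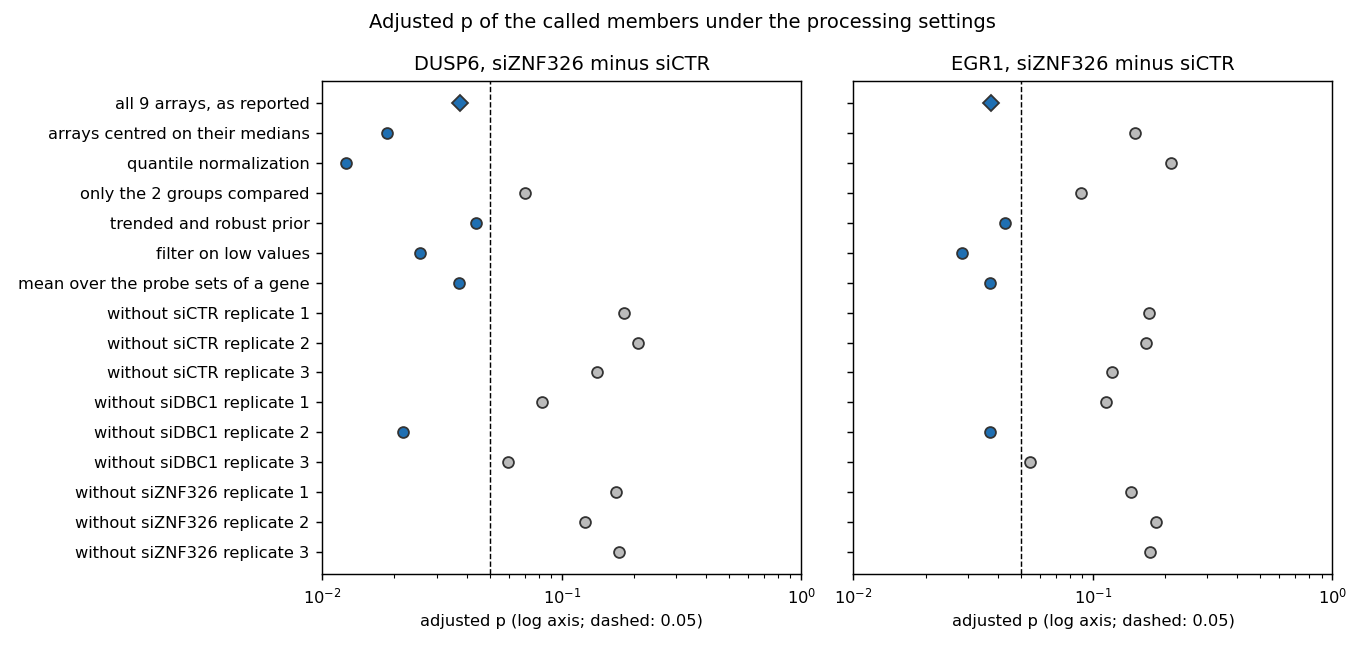
Adjusted p (horizontal axes, log scale) of DUSP6 and EGR1 in siZNF326 minus siCTR with all arrays (diamond) and under other settings or with 1 array left out (circles); blue lies below 0.05, the dashed line. Leaving out siDBC1 replicate 2 is the single omission that keeps both genes below the line. The fit with the replicate number as a block is not drawn (adjusted p = 0.0980 and 0.167 in limma).

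By the pattern over the 9 arrays, the genes most like DUSP6 were NEU1, a lysosomal sialidase (Pearson r = 0.97, Spearman 0.92), TMSB10, an actin-binding thymosin (0.96 and 0.93), and GNPDA1, an enzyme of glucosamine metabolism (0.96 and 0.97). Those most like EGR1 were TP53I3, a p53 target (0.96 and 0.90), INPP5D, an inositol phosphatase (0.96 and 0.93), and TUBB6, a beta tubulin (0.93 and 0.90). They were the highest of 3703 probe sets with 1 symbol and an SD over the arrays of at least 0.3. Removing the group means left correlations of 0.77, 0.94 and 0.63 for the genes like DUSP6, and −0.086, 0.095 and −0.29 for those like EGR1, whose likeness thus lay between groups and not within them. TP53I3 read 5.78, 5.46 and 5.61 in siCTR, 6.46, 6.41 and 6.58 in siDBC1, and 7.39, 7.28 and 7.15 in siZNF326, the same order of groups as EGR1. Between the members, DUSP6 and EGR1 correlated at 0.90, DUSP5 and ETV5 at 0.85, SPRY2 and SPRED1 at 0.83 and SPRY4 and PHLDA1 at 0.87 over the 9 arrays. Group means were not removed here, and DUSP6 and EGR1 share the order of the 3 groups. SPRY2 and SPRED1 also both rose with the array median, while SPRY4 and PHLDA1 both ran against it.

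The rest of the pathway was read through 6 lists of other genes, of which 81 had a probe set of their own and 20 did not. In limma 0 of the 81 were called in any of the 3 comparisons, beside the 0.0363%, 0.15% and 0.00909% of all probe sets. At an unadjusted p under 0.05 there were 8 in siDBC1 (7 higher), 16 in siZNF326 (14 higher) and 8 between the siRNA groups, beside 6.18%, 8.65% and 7.31% of all probe sets. The share in siZNF326 lay above this background, and those in siDBC1 and between the siRNA groups lay nearer to it. Whether any share differed from the background was not tested. The median difference of the 81 genes was 0.074 in siDBC1 and 0.15 in siZNF326. This median and those of the lists below are given for the reported scaling only. In siZNF326 the median over all probe sets was 0.032 at that scaling. It was −0.059 with arrays centred and −0.039 after quantile normalization, and how far the list medians move with it was not tested.

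Upstream of ERK, 18 receptors and adaptors had medians of −0.032 in siDBC1 and 0.13 in siZNF326. With the smallest p stood the receptor FGFR3 at −0.13 and the adaptor FRS3 at −0.20 in siDBC1, and the docking protein GAB1 at 0.60 and the receptor FGFR4 at −0.16 in siZNF326, with the lowest adjusted p, 0.564 in limma, for GAB1. The 11 ligands had medians of 0.047 and 0.032. Among them FGF18 and FGF8 were at 0.14 and 0.12 in siDBC1, and HBEGF and EREG, ligands of the EGF receptor family, at 0.37 and −0.37 in siZNF326. In the list of RAS, RAF, MEK and ERK with their scaffolds and brakes, 11 of 20 genes were measured, with medians of 0.057 and 0.24. HRAS was at 0.19 and PEBP1, an inhibitor of the cascade, at 0.23 in siDBC1, while RRAS was at 0.25 and the scaffold LAMTOR3 at 0.58 in siZNF326 (adjusted p = 0.318 and 0.588).

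Downstream of ERK, 12 effector kinases and nuclear factors had medians of 0.062 and 0.19. RPS6KA2, a ribosomal S6 kinase that ERK activates, stood lower in both: it read 6.78 ± 0.13 (SD, n = 3) in siCTR, 6.32 ± 0.20 in siDBC1 and 6.38 ± 0.015 in siZNF326, with differences of −0.46 and −0.40 (adjusted p = 0.468 and 0.361 in limma). The arrays of both siRNA groups lay below all siCTR arrays. ELK3, a partner of SRF, was at 0.54 in siDBC1, and ETV1, the third member of the ETV4 and ETV5 subfamily, at 0.84 in siZNF326 (adjusted p = 0.363). ETV1 lay below the lower quartile of all probe sets on 4 of 9 arrays.

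The other feedback genes were 12, with medians of 0.089 and 0.11. SPRED2, a relative of SPRED1, was at 0.40 and SPRY1 at −0.30 in siDBC1. DUSP1, a phosphatase of p38, JNK and ERK, read 8.45 ± 0.012 (SD, n = 3) in siCTR and 8.90 ± 0.12 in siZNF326, a difference of 0.45 (adjusted p = 0.351 in limma), and DUSP14 differed by 0.99 (adjusted p = 0.314). The 17 other output genes had medians of 0.16 in siDBC1, the highest of the 6 lists there, and 0.21 in siZNF326. JUNB, a subunit of AP-1, read 6.25 ± 0.12 in siCTR (SD, n = 3), 6.80 ± 0.086 in siDBC1 and 6.74 ± 0.025 in siZNF326, with differences of 0.55 and 0.49 (adjusted p = 0.170 and 0.106). IER3, an immediate early gene, was at 0.42 in siDBC1 (adjusted p = 0.389). MYC, an ERK-responsive growth regulator, lay the other way, from 8.72 ± 0.060 (SD, n = 3) in siCTR to 8.08 ± 0.068 in siZNF326, a difference of −0.63 (adjusted p = 0.204). With arrays centred and after quantile normalization MYC was at −0.73 and −0.76 and passed (adjusted p = 0.0259 and 0.0138), and after quantile normalization RPS6KA2 passed as well at −0.53 (adjusted p = 0.0412).

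**Figure D5:**
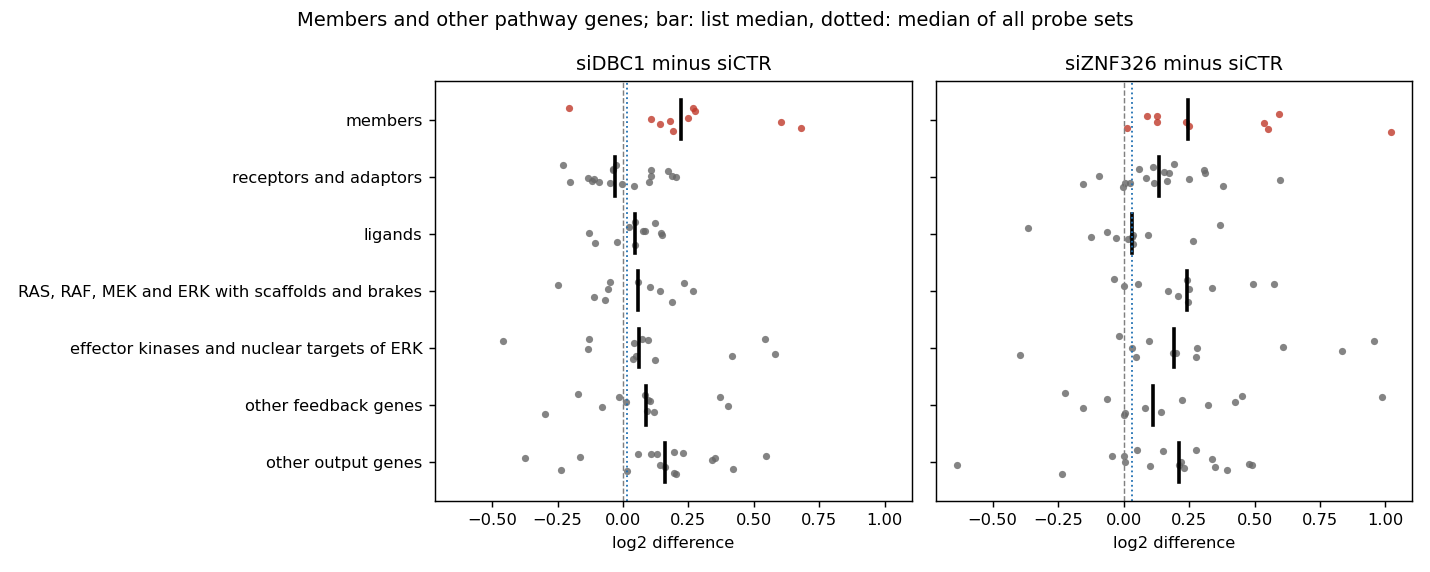
Log2 differences from siCTR (horizontal axes) of the 10 genes (red) and of 81 other pathway genes (grey) by list, in siDBC1 and siZNF326; 1 point per gene, black bars mark list medians and the dotted line the median of all probe sets. The 10 genes have medians of 0.22 and 0.24, and the receptors and adaptors −0.032 and 0.13.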

How the data were processed

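The deposited table holds 1 log2 value per probe set and array, which the authors made with RMA on build hg18, per the submitters' processing notes. The log base was taken from RMA and is not stated otherwise; values span 0.333 to 13.4. Software version and filters are not given in the sources used here. Of 22011 probe sets, 14432 carry 1 gene symbol in the platform annotation, 2408 several and 5171 none, and only those name a gene. Where a gene had several, the one with the highest mean was used. No detection values or scanner files were used, so the number of arrays limits the precision. Group means over all probe sets and 9 arrays were modelled with limma 3.58.1 in R 4.3.3 (two-sided, Benjamini-Hochberg within each comparison, call at adjusted p below 0.05) and tested on simulated data. Values are means ± SD, and intervals are 95% intervals of the fit. The design text names independent experiments without tying replicate numbers to them. Same-numbered arrays of different groups did not deviate together throughout and were not paired. Their correlations ran from −0.30 to 0.40, and only the replicate 2 arrays correlated best with their own number in both other groups. Members, lists and tests were chosen with earlier results of these data known. Genes named were the 10 members, CCAR2, ZNF326, of each pathway list the called genes and the 2 with the smallest p in each comparison with siCTR, and the 3 most like DUSP6 and EGR1. Alternatives were another scaling, a replicate block, fewer groups, another prior, a filter below the lower quartile, the mean over probe sets, and leaving out each array.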

Additional observations from a re-analysis of the deposited data

How the results depend on the processing

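The number of calls changed with the processing and with the omission of nearly any 1 array. Calls over all probe sets in siDBC1 against siCTR numbered 8, and 46 with arrays centred, 69 after quantile normalization, 4 with a trended and robust prior, 0 with only the 2 groups (1100 at an unadjusted p under 0.05 in limma) and 0 to 4 without 1 array. In siZNF326 against siCTR they numbered 33 (20 higher, 13 lower), and 119 with arrays centred (57 and 62), 196 after quantile normalization (89 and 107), 5 with only the 2 groups and 1 to 64 without 1 array, the highest without siDBC1 replicate 2. Between the siRNA groups they numbered 2 (1 higher, 1 lower), and 9 with arrays centred, 28 after quantile normalization (18 and 10), 0 with only the 2 groups (1118 at an unadjusted p under 0.05) and 0 to 1. Of the 10 genes, 2 were called in siZNF326, 1 (DUSP6) with arrays centred, 1 after quantile normalization, 0 with only the 2 groups (4 at an unadjusted p under 0.05) and 0 to 2 without 1 array. Of the other pathway genes 1 was called with arrays centred (MYC), 2 after quantile normalization (MYC and RPS6KA2) and 0 to 1 without 1 array (MYC, without siDBC1 replicate 2). The median of the 10 genes in siDBC1 was 0.25 without low probe sets, which drops SPRY4, and 0.18 to 0.26 without 1 array. In siZNF326 it was 0.15 with arrays centred and 0.11 after quantile normalization, beside −0.059 and −0.039 over all probe sets. Without 1 array the siZNF326 median of the 10 genes was 0.16 to 0.32.

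With a replicate block the calls over all probe sets were 0 in siDBC1, 1 in siZNF326 and 0 between the siRNA groups, and 0 of the 10 genes were called (DUSP6 adjusted p = 0.0980, EGR1 0.167), and CCAR2 in siDBC1 lost its call (adjusted p = 0.103). Same-numbered arrays correlated above 0.1 in 3 of 9 pairs (from −0.30 to 0.40), and 3 of 9 arrays correlated best with their own number. These were the replicate 2 arrays, which correlated with each other at 0.19, 0.096 and 0.40. Same-numbered pairs of replicates 1 and 3 ran from −0.30 to 0.25, so the numbers did not pair the arrays throughout.

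Signs turned only for small differences. DUSP4 in siZNF326 was −0.077 with arrays centred and −0.031 after quantile normalization, and −0.036 to 0.057 without 1 array; PHLDA1 was −0.0024 and −0.0025. Without 1 array, SPRY4 in siDBC1 ran from −0.018 to 0.35 and FGF18 from −0.0091 to 0.25. Between the siRNA groups DUSP5 ran from −0.098 to 0.011, SPRY4 from −0.22 to 0.14 and ETV5 from −0.20 to 0.035. Over all alternatives, 443 of 477 differences of the 10 genes kept direction and side of the threshold. This count does not measure stability, because several alternatives return the same difference by construction. Among these are another prior, a replicate block and leaving out an array of the third group. Most differences also had no call to lose. Of the rest, 12 turned sign, and 22, all of DUSP6 and EGR1 in siZNF326 against siCTR, lost the call. The cause was not tested.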
